A study of Mus musculus with 38 samples.

Results

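The clustered protocadherin genes Pcdha, Pcdhb and Pcdhg lie in tandem on mouse chromosome 18. Their members were taken as all peaks whose centre fell between 36.9 and 37.9 Mb of chromosome 18 in the mm10 build, and as all genes there whose symbol starts with Pcdha, Pcdhb or Pcdhg. This gave 143 peaks of 359759 in 17 peak lists, and 58 genes, of which 14 are Pcdha, 22 Pcdhb and 22 Pcdhg genes in RefSeq. All 58 are read from the plus strand. They run from Pcdha1, which starts at 36930285, to the common end of the Pcdhg genes at 37841873.

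Clustered protocadherins are cell surface adhesion proteins best known from neurons, where each cell switches on its own few isoforms and so acquires a surface identity. In Pcdha and Pcdhg, each variable exon has a promoter of its own and is spliced to constant exons shared by the whole cluster, whereas Pcdhb genes consist of single exons. CTCF, a zinc finger protein that with cohesin anchors chromatin loops, is known to bind many of these promoters and also enhancers beyond the constant exons, and the direction of its binding sequence bears on which loops form. The C-type genes Pcdhac1, Pcdhac2, Pcdhgc3, Pcdhgc4 and Pcdhgc5 are known to escape the random choice seen in the other genes.

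The cells were Cas9-LPs, lymphoid progenitor lines made from fetal liver of mice that were Ebf1-deficient and had Cas9 knocked in at Rosa26, so that all samples lacked Ebf1 and carried Cas9. LP cells were grown on OP9 stroma with SCF, Flt3L and IL-7 and had no Notch ligand. Phase 1 and the later Phase 2 cells had been moved to OP9-DLL4, stroma that presents the Notch ligand DLL4. ChIP-seq, which sequences the DNA bound by a protein, was done for CTCF, for RUNX1 (the DNA-binding partner of Cbfb), for Med12 (a Mediator subunit) and for p300 (a histone acetyltransferase) in LP and Phase 1, and for Notch1-IC, the intracellular part of Notch1, in all 3 stages. Further lists came from cells that had received the guides sgCont (a control), sgCTCF (RUNX1 in LP), sgMed12 (RUNX1 in Phase 1) or sgCbfb (Med12 in Phase 1) by retrovirus. Each list joined 2 replicate ChIP samples, which the labels do not tie to separate cultures, so that no value below has a replicate error, and the intervals and tests cover counting error only. Neighbouring peaks of 1 locus are also not independent of each other. Whether these progenitors transcribe the genes was not analysed here.

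CTCF was the main factor of the region. The LP list held 47 CTCF peaks in the window and the Phase 1 list 44, whereas the RUNX1, Med12 and p300 lists of the unedited cells held between 5 and 9 each. Per megabase, this was 47 LP CTCF peaks against 16.7 over all chromosomes, and 44 against 16.4 in Phase 1. For RUNX1 the window held 6 peaks in LP and 7 in Phase 1, against 11.7 and 14.1 per megabase over all chromosomes. Med12 had 5 and 9 peaks (11 and 14.4 per megabase overall), and p300 had 7 and 9 (13.3 and 18 overall). CTCF was thus the factor with more peaks in the window than its list average, and the other 3 had fewer. After the guides, the Med12 lists of Phase 1 held 4 peaks here with sgCont and 5 with sgCbfb. The 7 remaining lists, Notch1-IC in the 3 stages and RUNX1 after sgCont, sgCTCF or sgMed12, had no peak in the window. These lists were short, with between 152 and 2094 peaks in all.

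Most of the CTCF peaks were weak for their list and a few were among the strongest. HOMER, the peak caller, gave each peak a score, and only peaks at 15 or above were deposited. Since the scale of the score is not given, scores are compared only within a list, as a percentile of all its peaks. The median window peak scored 33.5 in LP and 32.7 in Phase 1, where the median of the whole list was 65.7 and 69.1. This placed it at percentile 27.8 of the LP list and 25.1 of the Phase 1 list. The peaks fell at the variable promoters and exons and at a few places between and beyond the clusters, and none fell in the 42.4 kb of the Pcdha constant exons.

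**Figure D1:**
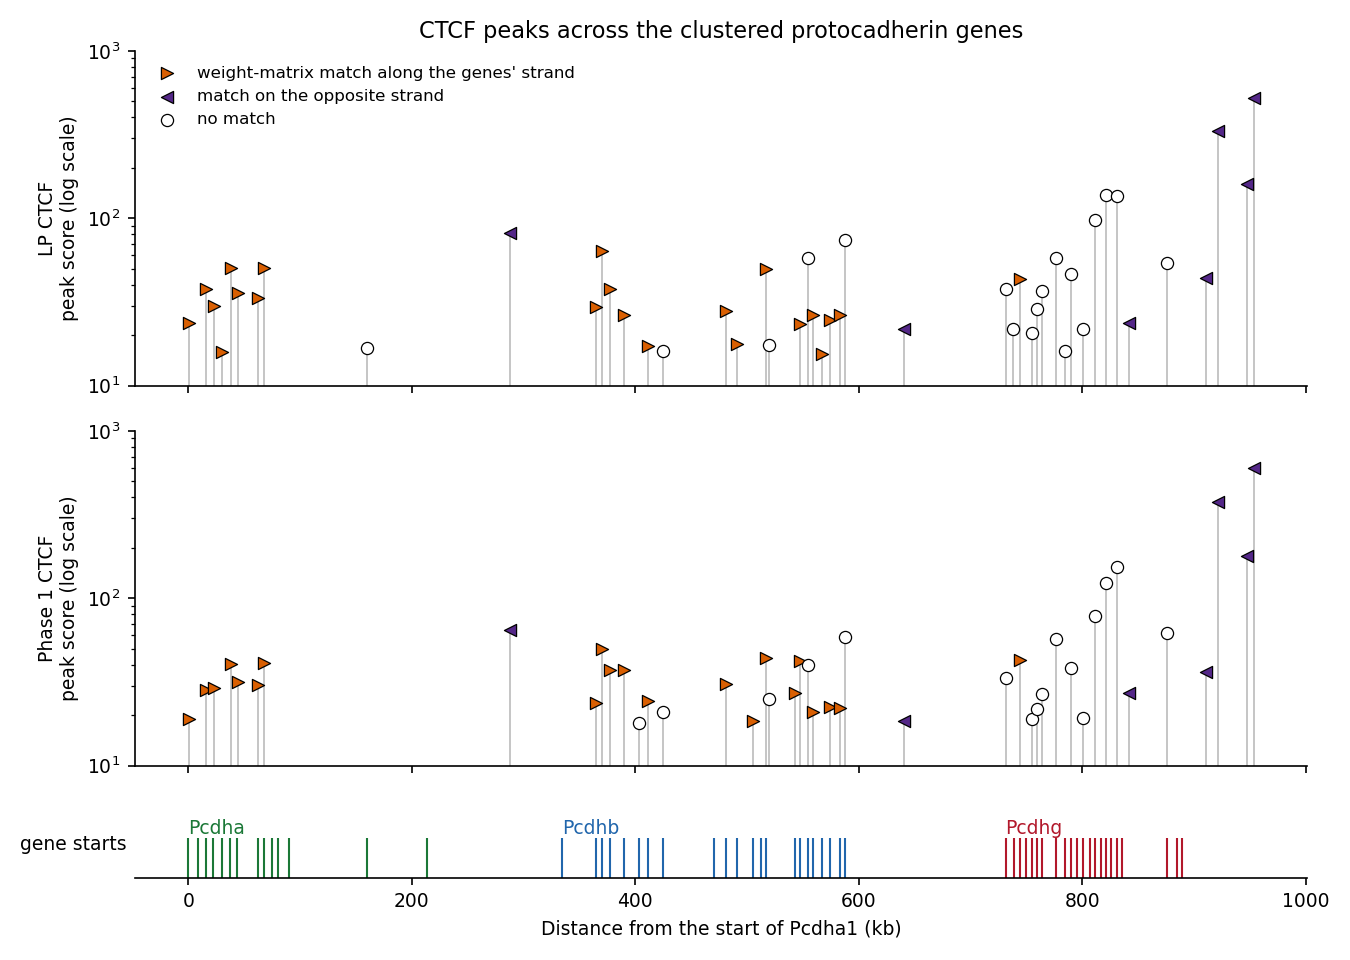
CTCF peak scores (log scale) along the window in LP and Phase 1, against the distance in kb from the start of Pcdha1, with gene starts marked below. Triangles point the way a match to the CTCF weight matrix runs and open circles have no match. Matches along the genes' strand lie within the clusters, and the 3 strongest peaks of both stages, after Pcdhg, have matches on the opposite strand.

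A CTCF peak centre lay within 1 kb of the start of 39 of the 58 genes (67.2%) in LP and of 36 (62.1%) in Phase 1. Among all 21774 protein-coding genes the same held for 26.2% in LP and 25.1% in Phase 1. In LP these were 9 of 14 Pcdha, 16 of 22 Pcdhb and 14 of 22 Pcdhg genes, and in Phase 1 they were 7, 17 and 12. By type, 8 of the 12 genes Pcdha1 to Pcdha12, 16 Pcdhb genes, 7 of 12 Pcdhga genes and 6 of 7 Pcdhgb genes had a peak in LP, but only 2 of the 5 C-type genes. Counting only peaks that scored at least 30, 19 genes had a peak in LP (32.8%) and 20 in Phase 1 (34.5%), against 22% and 22.3% of all protein-coding genes, so that the gap to other genes was smaller without the weak peaks. At this cutoff Pcdhb had 5 of 22 genes with a peak in LP (22.7%) and 8 in Phase 1 (36.4%), Pcdha had 5 and 4 of 14 (35.7% and 28.6%), and Pcdhg had 9 and 8 of 22 (40.9% and 36.4%). In LP the share of Pcdhb genes was thus close to that of all protein-coding genes.

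**Figure D2:**
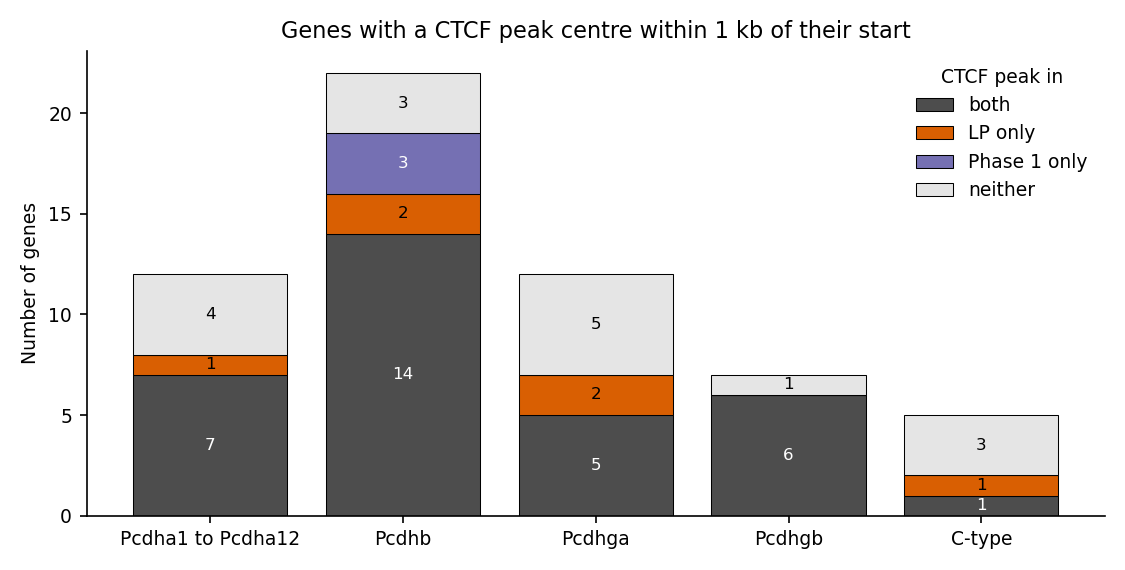
Number of genes of each type with a CTCF peak centre within 1 kb of their start, by the stage whose list held the peak. C-type genes are Pcdhac1, Pcdhac2, Pcdhgc3, Pcdhgc4 and Pcdhgc5. Of 22 Pcdhb genes 14 had a peak in both stages, and of 5 C-type genes 1 did.

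In Pcdha, the listed CTCF peak of a gene was centred in either of 2 places. No Pcdha gene had more than 1 listed peak per stage within 1 kb of its start. Whether CTCF also bound the other place at a gene was not tested. At Pcdha1, Pcdha4, Pcdha6, Pcdha7 and Pcdha8 the peak was centred inside the first exon, between 433 and 581 bp after the start in LP and between 446 and 608 bp after it in Phase 1. At Pcdha3, Pcdha5, Pcdha9 and Pcdhac1 it was centred in front of the start, at -64, -59, -135 and -210 bp in LP. The Pcdha6 and Pcdha9 peaks were the strongest of the cluster, each with a score of 50.6 in LP (percentile 41.7), and with 40.5 and 40.8 in Phase 1. Pcdha1 scored 23.8 in LP and 18.9 in Phase 1, and Pcdha3 37.8 and 28.3. Pcdha4 scored 29.9 and 29, Pcdha7 35.8 and 31.8, and Pcdha8 33.5 and 30.2. All 7 Pcdha peaks shared by both stages were therefore below the median of their list. Pcdha5 (15.9) and Pcdhac1 (16.7) were listed in LP only, close to the cutoff of 15. Pcdha2, Pcdha10, Pcdha11, Pcdha12 and Pcdhac2 had no CTCF peak in either stage.

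Part of the sequence under the Pcdha exon peaks is found at other places of the genome. Of the 50-base sequences under them in LP, 12.5% at Pcdha1, 14.8% at Pcdha4, 15.1% at Pcdha6, 42.6% at Pcdha7 and 29.3% at Pcdha8 occur elsewhere too, at up to 11 places in all, and which genes hold the other copies was not analysed here. The authors' alignment kept reads that matched several places up to a limit, which lay below 11 places. How such reads were placed, and whether reads over the limit were lost at these peaks, was not tested. The peaks in front of the Pcdha starts held no such repeated sequence, and among the peaks at the starts of Pcdhb and Pcdhg genes only those of Pcdhgb6 and Pcdhgb7 did (4.26% each in LP).

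In Pcdhb and Pcdhg every peak at a start was centred in front of it. The centres lay from -214 to -23 bp in LP in Pcdhb (median -56.5 bp, 16 genes) and from -186 to -7 bp in Phase 1 (median -72 bp, 17 genes). In Pcdhg they lay from -156 to -44 bp in LP (median -90 bp, 14 genes) and from -172 to -57 bp in Phase 1 (median -87.5 bp, 12 genes). Across the Pcdhb and Pcdhg genes, CTCF thus kept to a narrow band before the start of transcription.

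**Figure D3:**
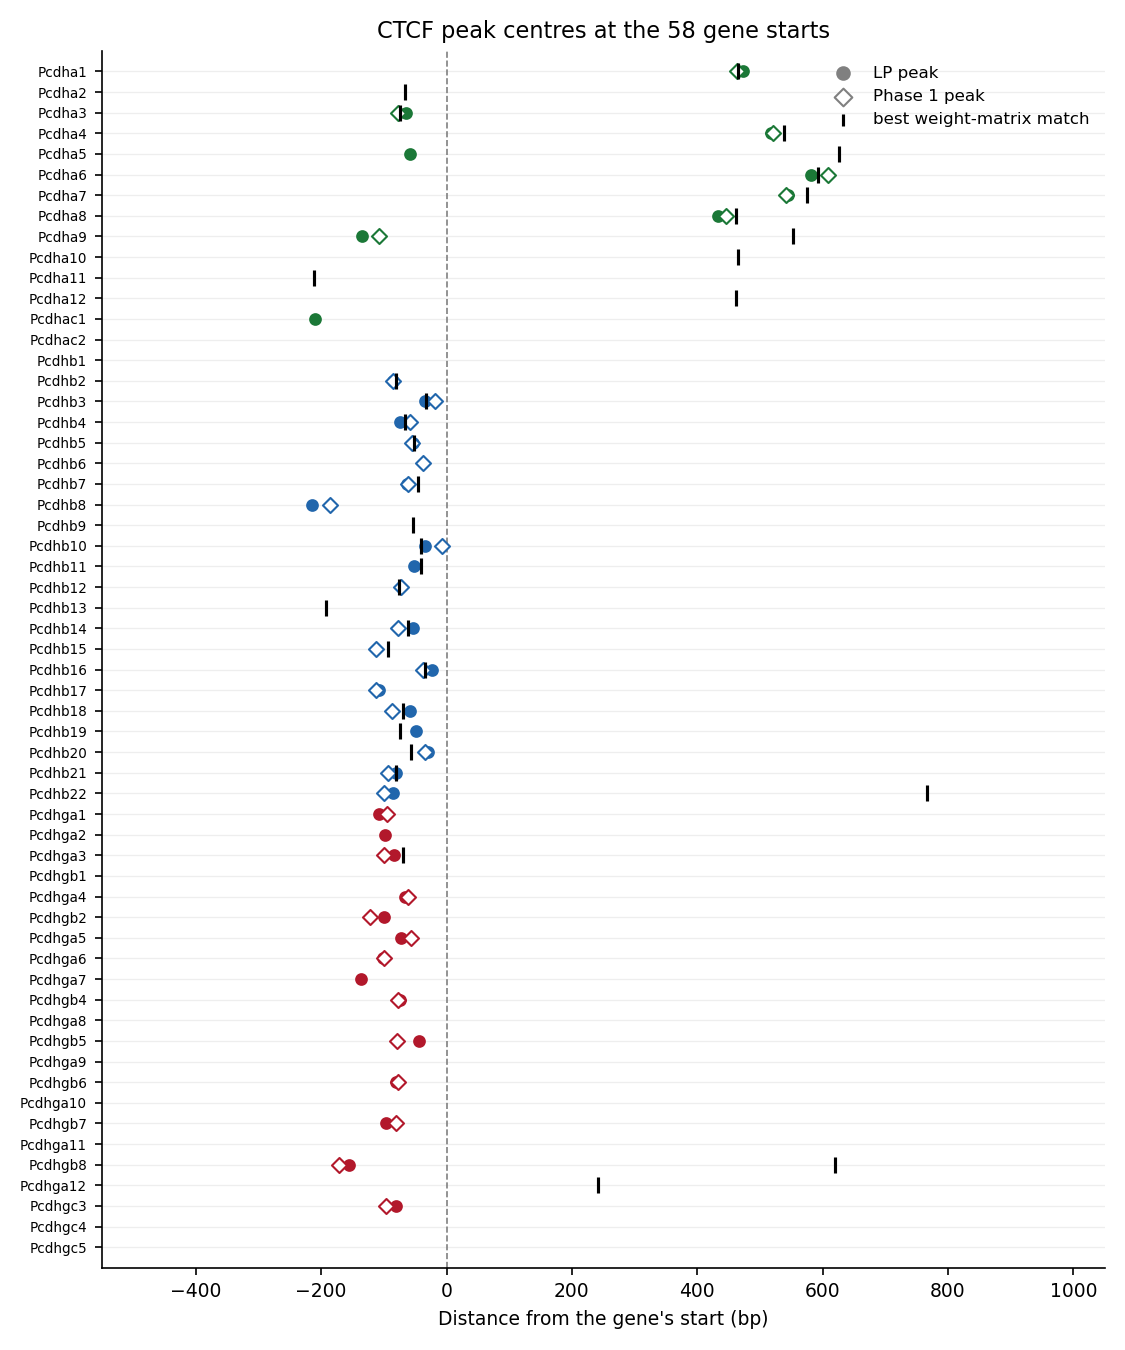
Distance in bp of the CTCF peak centre from each gene's start, for the 58 genes in chromosomal order, in LP (filled circles) and Phase 1 (open diamonds). Black ticks mark the best CTCF weight-matrix match from 500 bp before to 1 kb after the start, where there is one. Peaks of 5 Pcdha genes lie between 433 and 608 bp after the start, and all Pcdhb and Pcdhg peaks lie before it.

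Pcdhb peaks were mostly weak. The strongest was that of Pcdhb22, the last gene of the cluster, with a score of 74.2 in LP (percentile 53.7) and 58.8 in Phase 1. In LP, Pcdhb3 followed with 63.5 (49.6 in Phase 1), then Pcdhb17 with 57.7 (39.7) and Pcdhb14 with 49.5 (44.2). In Phase 1, Pcdhb14 and Pcdhb16 (42.2) stood above Pcdhb17. The cluster's median was 26.6 in LP and 27 in Phase 1. Pcdhb2, Pcdhb4, Pcdhb5, Pcdhb7, Pcdhb8, Pcdhb10, Pcdhb16, Pcdhb18, Pcdhb20 and Pcdhb21 also had a peak in both stages. Pcdhb11 (17.7) and Pcdhb19 (15.5) were listed in LP only, and Pcdhb6 (17.9), Pcdhb12 (18.4) and Pcdhb15 (27) in Phase 1 only. Pcdhb1, Pcdhb9 and Pcdhb13 had none. Pcdhb14 had a further, weak peak in its exon, centred 2380 bp after the start in LP, with a score of 17.6 in LP and 24.9 in Phase 1.

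In Pcdhg the peaks were uneven along the cluster. The 3 strongest sat at neighbouring B-type genes, Pcdhgb6, Pcdhgb7 and Pcdhgb8 (a transcribed pseudogene). Pcdhgb6 scored 97.8 in LP (percentile 62.6) and 78.7 in Phase 1. Pcdhgb7 scored 137.2 (percentile 74.2) and 123.7. Pcdhgb8 scored 135.2 (percentile 73.8) and 153.4. The A-type genes between and around them, Pcdhga8, Pcdhga9, Pcdhga10, Pcdhga11 and Pcdhga12, had no CTCF peak in either stage. Among the earlier A-type genes, Pcdhga6 scored 58 in LP and 57 in Phase 1, Pcdhga3 43.2 and 43, Pcdhga1 37.6 and 33.6, Pcdhga5 36.8 and 26.9, and Pcdhga4 20.6 and 19.1. Pcdhga2 (21.8) and Pcdhga7 (16.2) were listed in LP only. Of the other B-type genes, Pcdhgb4 scored 46.5 and 38.1, Pcdhgb2 28.8 and 21.8, and Pcdhgb5 21.8 and 19.2, and Pcdhgb1 had no peak. Of the 3 C-type genes here, Pcdhgc3 scored 53.9 in LP and 62 in Phase 1, and Pcdhgc4 and Pcdhgc5 had no peak.

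The strongest CTCF peaks of the window lay beyond Pcdhg, in introns of Diaph1, which encodes a formin that nucleates actin filaments. The peak at chr18:37883476-37883876 scored 523.5 in LP, at percentile 99.9 of the list, and 603.2 in Phase 1 (percentile 99.8). Its centre lay 41.8 kb after the last Pcdhg base. The peak at chr18:37852099-37852499, 10.4 kb after that base, scored 330 in LP (percentile 98.8) and 376.7 in Phase 1 (percentile 98.2). The third, at chr18:37877335-37877735 and 35.7 kb after it, scored 159.5 (percentile 79.9) and 179.3 (percentile 82.1). All 3 were thus higher in their list than any peak at a protocadherin start, in both stages.

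A few further CTCF peaks lay away from the starts. Between Pcdha and Pcdhb there was 1, at chr18:37218240-37218640 and 29.5 kb after the last Pcdha base, with a score of 82.1 in LP (percentile 56.9) and 64.3 in Phase 1. Between Pcdhb and Pcdhg, besides the peak in front of Pcdhga1, a weak peak at chr18:37570450-37570850 scored 21.9 and 18.4. In the intron behind Pcdhga12, a peak at chr18:37771977-37772377 scored 23.6 in LP and 27 in Phase 1. HOMER annotated it as a repeat of the SINE B2 family. At the end of the last constant exon of Pcdhg, a peak at chr18:37841261-37841661 scored 43.9 and 36.1. All of these were found in both stages.

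The question of the 2 stages is whether CTCF sites were kept when Notch signalling began. Of the 47 LP peaks, 41 overlapped a Phase 1 peak by at least 1 base (87.2%, 95% Wilson interval 74.8 to 94), where 90.5% of all LP CTCF peaks did. The difference from the rest of the list was not significant (odds ratio 0.721, adjusted p = 0.602 by Fisher's exact test, two-sided, Benjamini-Hochberg over the 8 tests of the main comparisons). Under another setting, p-values are also adjusted over 8 tests, and main comparisons stand in for those that the setting does not cover. Of the 44 Phase 1 peaks, 41 overlapped an LP peak (93.2%, interval 81.8 to 97.7), where 91.7% of the whole list did. The 6 LP-only and 3 Phase 1-only peaks all lay in front of gene starts. Their scores were low, from 15.5 to 21.8 in LP and from 17.9 to 27 in Phase 1, against medians of 37.6 and 36.1 for the shared window peaks. Low scores also marked the peaks of 1 stage in the whole lists, with medians of 20.4 in LP and 21.8 in Phase 1, against 75.5 and 78.6 for shared peaks. Whether a peak missing from 1 list marks a lost site or a signal just under the cutoff cannot be told apart without the signal itself. The 13 LP peaks outside promoters were all shared.

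The sequence under the CTCF peaks differed by cluster. The 12-letter CTCF consensus, searched without mismatch on both strands in the 200 bp around the centre, was found under 7 of the 47 LP peaks (14.9%, 95% Wilson interval 7.41 to 27.7). It was found under 16.6% of all LP CTCF peaks (adjusted p = 1 by the same Fisher's exact test) and in 0.185% of the flanks 2 kb to each side. The 7 were the 5 Pcdha exon peaks, the exon peak of Pcdhb14 and the strongest peak in Diaph1. None of the 34 LP peaks at promoters held it (0%, interval 0 to 10.2), against 6.72% of other promoter CTCF peaks. Outside promoters it was found under 7 of 13 peaks (53.8%, interval 29.1 to 76.8) against 17.5% (odds ratio 5.49, adjusted p = 0.0259 by Fisher's exact test). The 5 Pcdha exon peaks among the 7 belong to related genes and hold partly repeated sequence, so this test counts peaks that are not independent. With 1 mismatch allowed, 11 of the 47 peaks held it (23.4%) against 63% of the other LP CTCF peaks (odds ratio 0.18, adjusted p = 3.88e-07 by Fisher's exact test). This comparison was not split by promoter, although promoter peaks made up 34 of the 47 and only 3871 of the 45377 LP CTCF peaks on main chromosomes.

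A 20 bp weight matrix, learnt from CTCF peaks of other chromosomes after the data had been seen, allowed a looser match. It was set so that 5% of flanks passed, and it matched 29 of the 47 LP peaks in the window (61.7%) and 83.5% of all LP CTCF peaks. Most window peaks were at promoters, where the matrix matched 17 of 34 (50%) in the window and 56.4% of all LP promoter CTCF peaks. Outside promoters it matched 12 of 13 window peaks. Matches lay under 8 of 9 LP peaks in the Pcdha variable region and 13 of 17 in the Pcdhb cluster. In the Pcdhg variable region only 2 of 14 peaks had a match, at the start of Pcdhga3 and in the repeat behind Pcdhga12. The strong peaks of Pcdhgb6, Pcdhgb7 and Pcdhgb8 had none. All 4 peaks at the end of Pcdhg and in Diaph1 had one. The exon peak of Pcdhb14 holds the exact consensus but stayed just under the matrix threshold.

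The direction of the matches differed between the gene starts and the places away from them. Of the 29 matches, 22 ran along the strand on which the genes are read and 7 on the opposite strand. All 8 in the Pcdha variable region and all 13 in the Pcdhb cluster ran with the genes. The single match of the region between Pcdha and Pcdhb, the 1 between Pcdhb and Pcdhg, that behind Pcdhga12, that at the end of Pcdhg and the 3 in Diaph1 all ran against them. Of these 7, the match behind Pcdhga12 and that at the end of Pcdhg lie inside the Pcdhg cluster. The remaining forward match was that of Pcdhga3. The exact consensus in the Pcdhb14 exon, which the matrix did not count, also ran against the genes. In the whole LP list, 18813 of 37906 matches ran on the plus strand. Phase 1 gave 28 matches, 21 with and 7 against the genes, in the same regions. This is a description of 1 locus, which holds families of related genes.

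Some genes had a match and no listed peak. Of the 16 genes with no CTCF peak in either stage, 7 had a matrix match between 500 bp before and 1 kb after their start, namely Pcdha2, Pcdha10, Pcdha11, Pcdha12, Pcdhb9, Pcdhb13 and Pcdhga12. Among all protein-coding genes 46.5% had such a match, so 7 of 16 does not set these genes apart. Repeated sequence was counted only under listed peaks, and whether reads were lost to it at these genes was not tested. In all, 33 of the 58 genes had a match there, against 46.5% of all protein-coding genes. Each of the 58 was searched at 1 start, whereas a gene of the whole set counted if any of its annotated starts had a match. Of the 12 genes Pcdha1 to Pcdha12 all had one, and of the 22 Pcdhb genes 18 had one. At Pcdha5 and Pcdha9 the best match lay 626 and 552 bp after the start. Their listed peaks were centred in front of the start and held a weaker match there. None of the 5 C-type genes had a match, although Pcdhgc3 and, in LP, Pcdhac1 had a peak.

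RUNX1, Med12 and p300 were listed at few of these CTCF peaks. Of the LP CTCF peaks, 43 of 47 overlapped no peak of any of these factors in LP, and in Phase 1 this held for 40 of 44. The same count over the whole CTCF lists was not made, so only the shares by factor can be compared. RUNX1 lay at 4 of 47 peaks in LP (8.51%, 95% Wilson interval 3.36 to 19.9) against 16.4% of the list, and at 3 of 44 in Phase 1 (6.82%, 2.35 to 18.2) against 13.4%. Med12 lay at 3 in LP (6.38%, 2.19 to 17.2) against 15.6%, and at 4 in Phase 1 (9.09%, 3.59 to 21.2) against 12.9%. For p300 it was 4 in LP (8.51%) against 18.5%, and 4 in Phase 1 (9.09%) against 17%. By Fisher's exact test, none of the 6 differences from the other CTCF peaks of the list was significant, with adjusted p from 0.419 to 0.744.

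CTCF peaks at promoters were also set against promoter CTCF peaks elsewhere, a comparison added after the data had been seen. Only 1 of the 34 LP promoter peaks in the window, that of Pcdhgc3, overlapped RUNX1, Med12 or p300 (2.94%, 95% Wilson interval 0.521 to 14.9, for each). At the other 3837 promoter CTCF peaks of the LP list the shares were 64.2% for RUNX1, 64.2% for Med12 and 66.2% for p300. In Phase 1 it was again 1 of 31 promoter peaks (3.23%), against 60%, 58% and 61.5%. All 6 differences passed Fisher's exact test, with adjusted p from 7.03e-14 to 1.4e-10. The promoters compared were not alike in sequence. Median GC content was 41.5% under the window promoter peaks and 61.5% under all promoter CTCF peaks of LP, and the median ratio of observed to expected CpG was 0.545 against 0.701. The part of base composition in the difference was not tested. At the 13 LP CTCF peaks of the window outside promoters, RUNX1 lay at 3 (23.1%) against 11.9% elsewhere, with adjusted p = 0.47 by Fisher's exact test.

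**Figure D4:**
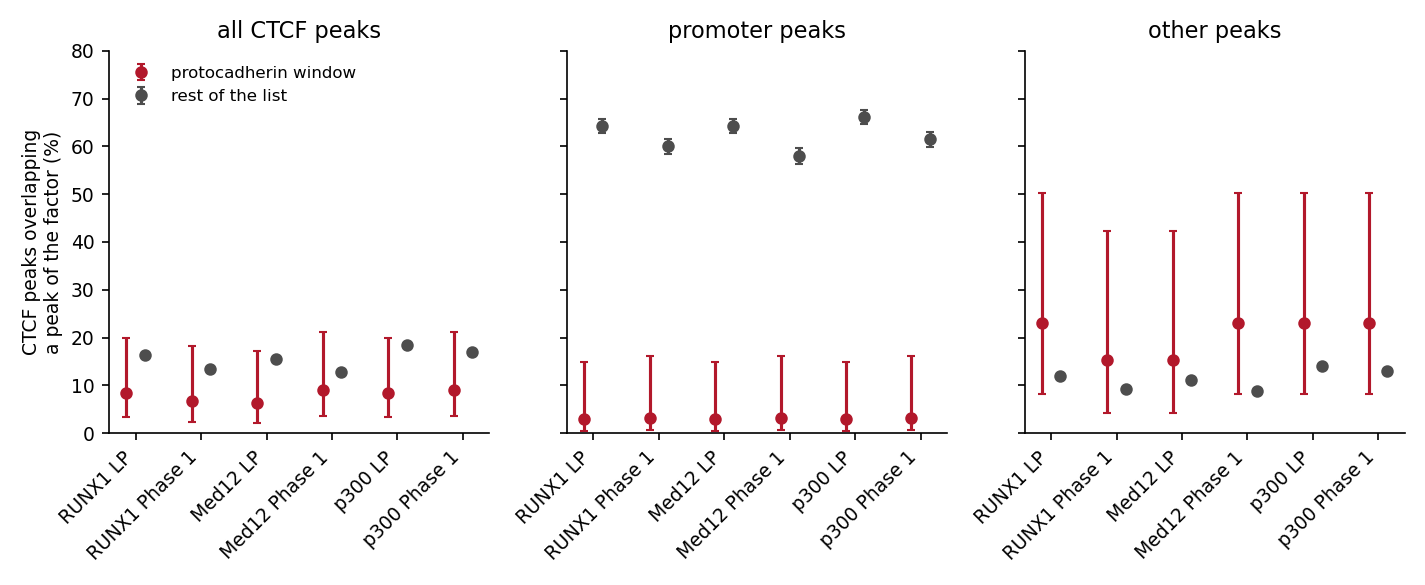
Percent of CTCF peaks that overlap a RUNX1, Med12 or p300 peak of the same stage, in the protocadherin window (red) and in the rest of the list (grey), for all CTCF peaks, promoter peaks and other peaks. Bars are 95% Wilson intervals and cover counting error only. At promoters the window shares are 2.94% in LP and 3.23% in Phase 1, against 58% to 66.2% elsewhere.

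The peaks of RUNX1, p300 and Med12 merged into 10 sites, of which 7 lay among or after the Pcdhg constant exons. Of the 10, 4 also carried CTCF, namely the Pcdhgc3 promoter and 3 sites in Diaph1. All 3 factors met at 4 sites in LP and at 7 in Phase 1. The Phase 1 lists were longer, with 38399 against 31995 peaks for RUNX1, 39132 against 30020 for Med12 and 49116 against 36182 for p300. How often all 3 met elsewhere was not counted. The sites of the window were few, and most were at the far end of the region.

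At the Diaph1 site 41.8 kb after Pcdhg, where CTCF was strongest, all factors were present in both stages. RUNX1 scored 55.2 in LP and 43.5 in Phase 1. For p300 the scores were 230.2 (percentile 93.2) and 271.7 (percentile 96), and for Med12 72.9 and 54.2. Med12 was also listed there after sgCont (40.7) and sgCbfb (63.6). At the site 10.4 kb after Pcdhg, which had the second CTCF peak, RUNX1 scored 18.3 in LP and 23.2 in Phase 1 and p300 scored 20.1 and 35. Med12 was listed there in Phase 1 (26.9) and after both guides (17.1 with sgCont, 21.9 with sgCbfb) but not in LP. At the site 35.6 kb after Pcdhg, RUNX1 was listed in LP only (16.1), and p300 scored 28.5 and 24.2. Med12 scored 28.3 in LP and 16 in Phase 1, and after the guides was listed with sgCbfb (18) and not with sgCont.

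**Figure D5:**
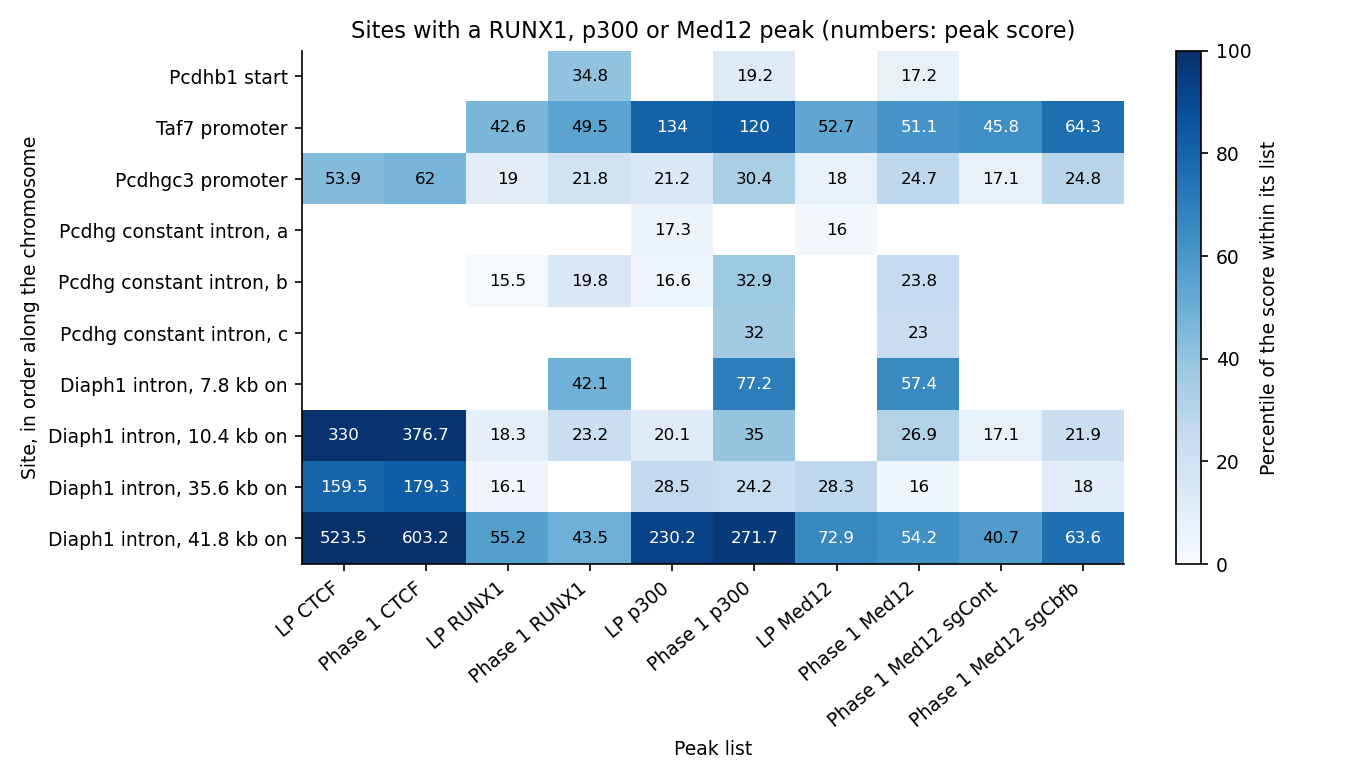
Scores of the RUNX1, p300, Med12 and CTCF peaks at the 10 sites with a RUNX1, p300 or Med12 peak, in chromosomal order, by list. Colour is the percentile of the score within its list and an empty cell means that no peak was listed. The Pcdhb1 start and the Diaph1 site 7.8 kb after Pcdhg have peaks of RUNX1, p300 and Med12 in Phase 1 and none in LP.

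At 2 sites, neither with CTCF, all 3 factors were listed in Phase 1 and none in LP. In Diaph1, 7.8 kb after the last Pcdhg base (chr18:37849466-37849900), RUNX1 scored 42.1 (percentile 48.2), Med12 57.4 (percentile 65.5) and p300 77.2 (percentile 69.7). At the start of Pcdhb1 (chr18:37264930-37265311), RUNX1 scored 34.8 (percentile 40.4), Med12 17.2 (percentile 7.51) and p300 19.2 (percentile 12.2). Pcdhb1 is itself a gene without a CTCF peak. Neither site was listed for Med12 after sgCont or sgCbfb, in lists with 19053 and 18099 peaks against 39132 in the unedited Phase 1 cells. Of the 7 Phase 1 RUNX1 peaks, 2 had no LP partner, which were these, and 30.7% of the whole Phase 1 RUNX1 list had none. In LP it was 1 of 6 against 16.8%.

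Within the Pcdhg constant exons 3 intronic sites were listed, none with CTCF. The site at chr18:37835545-37835963 had RUNX1 in both stages (15.5 in LP, 19.8 in Phase 1), p300 in both (16.6 and 32.9) and Med12 in Phase 1 (23.8). The next, at chr18:37836476-37836886, had p300 (32) and Med12 (23) in Phase 1 only. The first, at chr18:37825294-37825665, had Med12 (16) and p300 (17.3) in LP only, near the cutoff.

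Of the promoters, those of Pcdhgc3 and Taf7 carried all 3 factors in both stages. Taf7, which encodes a subunit of the general factor TFIID, is an unrelated gene between Pcdhb and Pcdhg. Its promoter had no CTCF peak, and its scores were 42.6 and 49.5 for RUNX1, 52.7 and 51.1 for Med12, and 134 and 120 for p300 in LP and Phase 1. Pcdhgc3 stood lower, with RUNX1 at 19 and 21.8, Med12 at 18 and 24.7, and p300 at 21.2 and 30.4. Both promoters were listed for Med12 after the guides, Taf7 with 45.8 (sgCont) and 64.3 (sgCbfb) and Pcdhgc3 with 17.1 and 24.8. Pcdhgc3 was the only protocadherin gene with RUNX1, Med12 or p300 within 1 kb of its start in LP, and in Phase 1 Pcdhb1 joined it. The share of all protein-coding genes with these factors at a start was not counted.

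The RUNX binding sequence, searched as TGTGGTT or TGCGGTT on both strands of the 200 bp around the centre, was found under 1 of the 6 LP RUNX1 peaks and 2 of the 7 Phase 1 peaks. In the whole lists it was found under 21.2% and 25.4%. The peaks that held it were the Pcdhg constant exon site at 37835545-37835963 in both stages and, in Phase 1, the Diaph1 site 7.8 kb after Pcdhg. No RUNX1 peak at a CTCF site of the window held these letters within that distance.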

How the data were processed

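ChIP-seq had been done on 34 samples in 17 groups of 2 replicates, with 4 input samples. Per the labels, reads were aligned to mm10 with Bowtie 1.1.1 and peaks were called with HOMER. The authors kept peaks reproducible between both replicates (IDR), so 1 deposited list holds 1 group, and its values are HOMER peak scores of 15 or more, of a scale not stated in the headers. The labels and the methods differ on read length and layout, and read depth was not used here. The members, lists and comparisons were chosen with earlier results of these data known.

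Genes were taken from RefSeq for GRCm38.p6, the assembly of mm10, since the 58 members carry unique symbols there. Peaks overlapped when they shared at least 1 base. A start had CTCF when a peak centre lay within 1 kb. In the shares of all protein-coding genes, any annotated start of a gene could count. Window CTCF peaks were compared with all other CTCF peaks of the list by Fisher's exact test (two-sided, scipy 1.17.1), with Benjamini-Hochberg adjustment over 8 tests at 0.05. Intervals are 95% Wilson intervals. Sequence was read from 200 bp around each centre and from flanks 2 kb away. The weight matrix was learnt on the 5000 highest-scored LP CTCF peaks of other chromosomes. Overlap, string search, strand calls and tests were checked on simulated data. Every gene with a CTCF peak at its start is named, as are the highest-scored peaks, peaks of 1 stage, those outside the clusters and all peaks of the other factors. HOMER's annotation column set which peaks were at promoters.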

Additional observations from a re-analysis of the deposited data

How the results depend on the processing

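No paired analysis was possible because each list already joined both replicates of its group, and for the same reason no replicate could be left out. Scores of at least 30 left 24 CTCF peaks in the window in LP and 25 in Phase 1, 2 and 4 of RUNX1, and 2 and 3 of Med12. They left 2 peaks of LP p300, and 2 of Med12 after each of sgCont and sgCbfb. With these scores, 19 genes had CTCF at the start in LP and 20 in Phase 1. Distances of 500 bp or 2 kb kept both gene counts over the 58 genes within 1.5 times. At 500 bp, however, the Pcdha genes with a peak fell from 9 to 6 in LP and from 7 to 4 in Phase 1.

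Odds ratios of the window against the rest changed mainly with what was compared. From the first Pcdha to the last Pcdhg base, without the Diaph1 peaks, RUNX1 in LP (0.119), Med12 in LP (0.126), p300 in LP (0.102) and p300 in Phase 1 (0.122) became significant. Among promoter peaks alone, all 6 did, with 0.0169 and 0.0222 for RUNX1, 0.0169 and 0.0241 for Med12, and 0.0155 and 0.0209 for p300 in LP and Phase 1. Without promoter peaks the direction turned, to 2.21 and 1.78 for RUNX1, 1.45 and 3.06 for Med12, and 1.83 and 2 for p300, none significant, and to 5.49 for the CTCF consensus, and the share found in both stages gave no odds ratio as all 13 peaks were shared. Matching on 5 score classes turned that share (1.49) and the consensus (1.37), neither significant. Counting centres within 100 bp, the odds ratios of all 3 factors in Phase 1 came close to 1, at 1.01 for RUNX1, 1.09 for Med12 and 0.98 for p300. The consensus with 1 mismatch (0.18) or the weight matrix (0.317) became significant, in tests that were not split by promoter. The causes of these shifts were not tested.

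Depth limits what a missing peak means: the lists hold no signal below the cutoff, and the guide lists of RUNX1 and the Notch1-IC lists are short.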
